A study of Mus musculus with 4 samples.

Results

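The cytosolic ribosomal proteins were followed in mouse E0771 breast carcinoma cells by 68 probes whose annotated gene symbol begins Rpl or Rps, followed by a number or the letter a. These probes read 66 genes of the 19316 genes with values on the array, of which 24 code for proteins of the small subunit, 35 for proteins of the large subunit and 7 for paralogs with a symbol ending in l or l1. The acidic stalk proteins, Rps27a and the other subunits without a matching symbol were not analysed here. The probes of Rpl22, Rps27 and Rps4l are annotated to non-coding RefSeq transcripts. The members were taken by a rule on the symbol alone, but the rule was chosen with earlier results of these data known.

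The study asked how the cytokine IL-26 acts on triple negative breast cancer cells. E0771 cells, a single established mouse line, were exposed to IL-26 at 30 ng/ml for 24 h or to medium alone (vehicle) for 24 h, and likewise to IL-26 or vehicle for 6 h. All 4 groups were grown in RPMI1640 with serum and differed only in IL-26 and in time. Each group was 1 sample on 1 array, so no value below has a replicate.

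The cytosolic ribosome joins a small subunit, which decodes the messenger RNA, to a large subunit, which forms the peptide bonds. Its proteins are needed in equal numbers, and their messenger RNAs are among the most abundant in growing cells. Most of these messengers begin with a C followed by a run of pyrimidines (a 5′ terminal oligopyrimidine tract, or TOP), through which mTOR signalling sets how actively they are translated. That control acts on translation, so an array of total RNA does not read it.

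The members were read from very bright spots on the whole. The median member spot had an intensity of 14626 at 24 h with IL-26 and 15377 with vehicle, and of 14991 at 6 h with IL-26 and 16625 with vehicle. The median over all gene spots was 78.0 and 84.4 at 24 h with IL-26 and vehicle, and 78.9 and 82.0 at 6 h with IL-26 and vehicle. Of the 100 brightest gene spots on each array, 33 were member spots. All 66 genes lay above the blank spots (their mean plus 2 SD) on at least 1 array, and 65 did so on all 4. The exception was Rpl3l, the striated muscle paralog of Rpl3, which passed only at 24 h with vehicle, with a spot of 59.0 where the limit was 58.1.

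No member spot reached full scale. None stood at 60000 or more or within 1% of the brightest spot of its array. The only gene spot at full scale was that of an unnamed probe, which is no member. It stood there on both vehicle arrays and at 6 h with IL-26.

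The upper end of the scale held few members. A spot of 40000 or more was found for 1 member at 24 h with IL-26 and 2 with vehicle, and for 3 at 6 h with IL-26 and 6 with vehicle. Rps2, a small subunit protein, had the highest member spot on 3 arrays, with 40900 at 24 h with IL-26 and 46481 with vehicle, and 48390 at 6 h with vehicle. At 6 h with IL-26 the highest was Rpl32 of the large subunit at 45301, where Rps2 had 41590. These 2 spots, with Rpl10, Rpl5, Rps18 and Rpl8, were the 6 members at 40000 or more on any array.

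Saturation had to be judged against 3 scans and not 1. The file headers give the lines that bring 2 further scans, at other gains, onto the scale of the first. Full scale of the second scan corresponded to 30499 and 30501 on that scale at 24 h with IL-26 and vehicle, and to 30498 and 30694 at 6 h with IL-26 and vehicle. For the remaining scan it corresponded to 15305 and 15374 at 24 h with IL-26 and vehicle, and to 15369 and 15500 at 6 h with IL-26 and vehicle, and 30 and 34 member spots at 24 h and 33 and 36 at 6 h lay above it in the same order. Values carried decimals up to 27414, 27415, 27809 and 27997 on the same 4 arrays, and above that they were whole numbers, as readings of the first scan alone are.

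By this criterion 11 member spots were read from the first scan alone on all 4 arrays, namely those of Rpl10, Rpl32, Rpl35, Rpl41, Rpl5, Rpl8, Rps14, Rps18, Rps2, Rps29 and Rps3a1. A further 5 spots crossed the boundary, with Rps10 and Rps4x above it on 3 arrays, Rps16 and Rps26 on 2 and 1 of the 2 spots of Rpl9 on 1. The other 52 spots stayed below it. Set against the full scale of the second scan, 13 of these 16 reached it on at least 1 array and may be saturated in both other scans: Rpl10, Rpl32, Rpl41, Rpl5, Rps18 and Rps2 on all 4 arrays, Rpl35, Rpl8, Rps14, Rps29 and Rps3a1 on all but that of IL-26 at 24 h, and Rps10 and Rps4x at 6 h with vehicle. The other 3 (Rpl9, Rps16 and Rps26) stayed below it on every array. The spot value is a median over pixels, so saturated single pixels would not show in it. The first scan still separated them, since none came nearer to full scale than 48390.

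**Figure D1:**
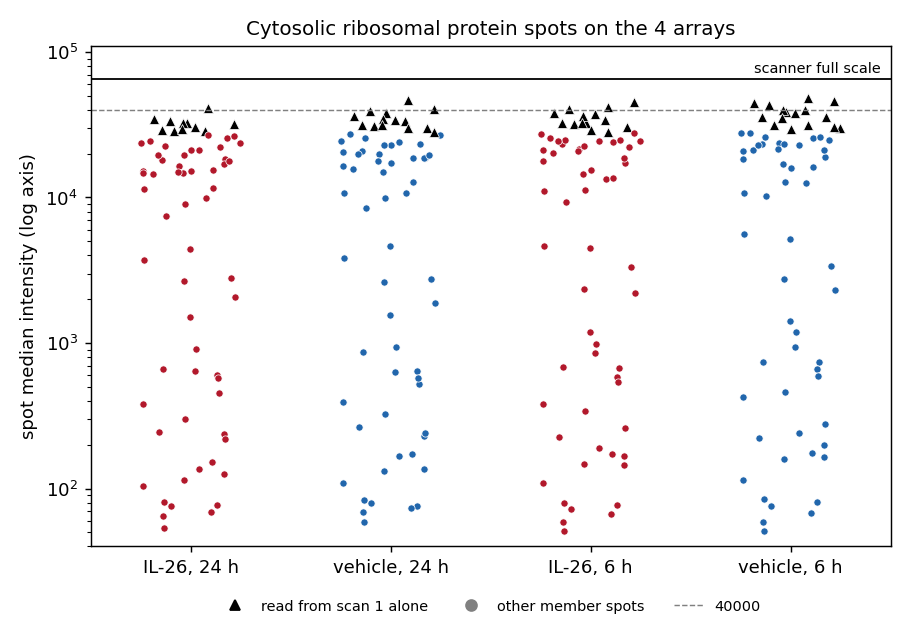
Spot median intensity of Cy5 (log axis) of the 68 member spots on each of the 4 arrays, red for IL-26 and blue for vehicle, with black triangles for spots read from scan 1 alone. All spots lie under the scanner full scale, and between 1 and 6 of them lie above the dashed line at 40000 on each array.

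Local background, measured around each spot, was not the same in the treated and vehicle arrays. At member spots of 10000 or more its median was 8129 at 24 h with IL-26 and 14872 with vehicle, and 6980 at 6 h with IL-26 and 17460 with vehicle. It thus came to 40.7% and 59.4% of the spot at 24 h with IL-26 and vehicle, and to 26.4% and 77.2% at 6 h with IL-26 and vehicle. Background reached or passed the spot itself at 0 and 4 of these bright spots at 24 h with IL-26 and vehicle, and at 0 and 8 at 6 h with IL-26 and vehicle. Rps18 showed it plainly, with 10603 around a spot of 32406 at 24 h with IL-26 and 29195 around 34521 with vehicle, and with 9229 around 36275 at 6 h with IL-26 and 38694 around 40137 with vehicle. Other gene spots of 10000 or more went the same way, with medians of 4574 and 7945 at 24 h with IL-26 and vehicle, and 4329 and 9458 at 6 h with IL-26 and vehicle. The values below were therefore not corrected with it, and its part in any difference was tested only by the alternative in which it is subtracted.

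**Figure D2:**
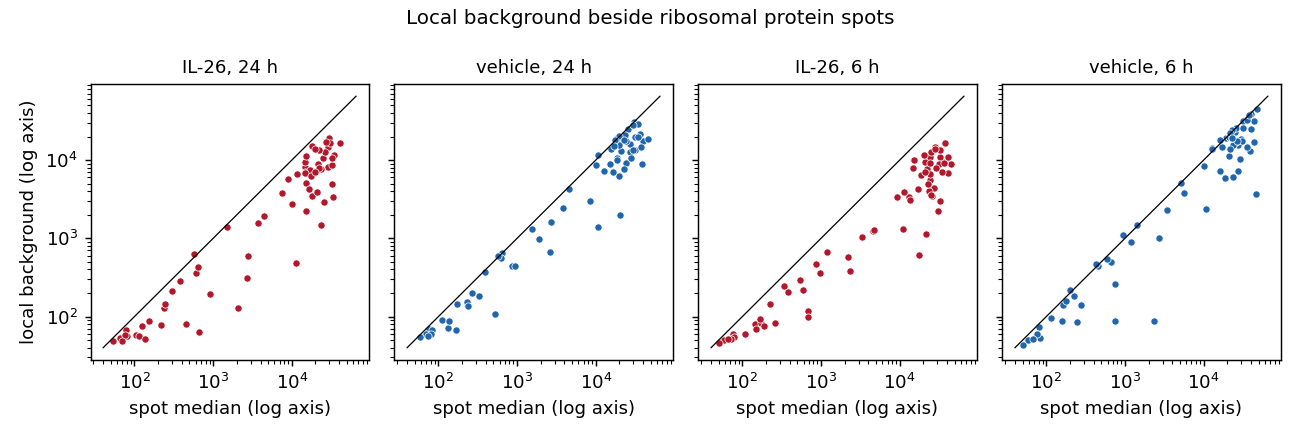
Local background (vertical, log axis) against spot median intensity (horizontal, log axis) of the 68 member spots, 1 panel for each array; the line marks equal values. Bright spots lie nearer to the line on the vehicle arrays, where 4 (24 h) and 8 (6 h) spots of 10000 or more reach or pass it, against 0 on both IL-26 arrays.

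No ribosomal protein gene passed the test for IL-26 with the spots as normalised here. In limma's additive fit of treatment and time over 18372 detected genes, 0 of 66 members were called higher with IL-26 and 0 lower at an adjusted p under 0.05. Over all genes tested, 0.169% were called higher and 0.321% lower, and read against these rates 0 of 66 is not a result about the members. An unadjusted p under 0.05 was found for 3 members, or 4.55%, against 4.77% of all genes. The lowest adjusted p of a member was 0.514. With the local background subtracted, which was higher on both vehicle arrays, 10 members were called higher with IL-26 and 0 lower, where 3.77% of all genes were called higher. Each gene had only 1 residual degree of freedom beside a prior worth 63.8, so the errors come mostly from other genes.

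Differences at each time depended on the treatment of background. On the log2 scale the member median of IL-26 minus vehicle was 0.029 at 24 h and -0.0063 at 6 h, against 0.006 and -7e-04 for all detected genes. The 24 h median turned to -0.074 with median scaling and to -0.018 in the authors' own values. As a limit of size a log2 difference of 0.32 was used. Higher with IL-26 by this much were 0 members at 24 h and 0 at 6 h, where 0.354% and 0.588% of all genes were. Lower by this much were 1 member at 24 h and 0 at 6 h, where 1.06% and 0.348% of all genes were. With the local background subtracted, the member medians were 0.069 at 24 h and 0.37 at 6 h, and 34 members at 24 h and 49 at 6 h passed the limit in either direction, where 29.7% and 41.2% of all genes did.

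Rpl3, a large subunit protein that lies close to the peptidyl transferase centre, had the highest averaged difference. Its spot read 11412 at 24 h with IL-26 and 10715 with vehicle, and 11156 at 6 h with IL-26 and 10820 with vehicle. Both IL-26 arrays were above their vehicle array. The normalised difference was 0.29 at 24 h and 0.20 at 6 h, and the average of 0.25 ± 0.09 (SE) had an adjusted p of 0.514. With the local background subtracted its average was -0.18.

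Rps21, a small subunit protein needed for late maturation of 18S rRNA, had the lowest. Its spot read 136.3 at 24 h with IL-26 and 166.9 with vehicle, and 190.7 at 6 h with IL-26 and 242.1 with vehicle, lower with IL-26 at both times. The normalised differences were -0.20 and -0.24, and the average of -0.22 ± 0.08 (SE) had an adjusted p of 0.579. Neither value passed the test.

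The other leading members moved at 1 time more than at the other. Rpl27a, of the large subunit, was the member past that limit at 24 h, with a spot of 661.4 with IL-26 and 870.2 with vehicle, while at 6 h it read 688.3 and 740.4. Its normalised difference was -0.32 at 24 h and 0.03 at 6 h. Rpl36a stood just inside that limit at 24 h with -0.30, where at 6 h it had 0.08. Rpl14 stood just inside it at 6 h with -0.30, where at 24 h it had -0.02.

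The remaining values were closer to 0. At 24 h the next highest differences were those of Rpl28 (0.24), Rpl29 (0.18), Rpl22l1 (0.17), Rpl10l (0.15) and Rpl10a (0.15), and the next lowest those of Rpl32 (-0.19), Rpl26 (-0.17) and Rpl34 (-0.14). At 6 h Rps3, a small subunit protein at the mRNA entry side, was highest with 0.22, followed after Rpl3 by Rps27 (0.20), Rpl15 (0.19), Rpl32 (0.15) and Rpl29 (0.15). The lowest at 6 h after Rpl14 and Rps21 were Rps15 (-0.18), Rpl7l1 (-0.16), Rps2 (-0.15) and Rpl41 (-0.14). The values of Rps2 and Rpl32 at 6 h come from an exchange of neighbouring ranks, and Rpl32 had the lower spot on each IL-26 array. Of the 66 members, 25 had the same sign at both, or 37.9%, against 47.2% of all genes.

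**Figure D3:**
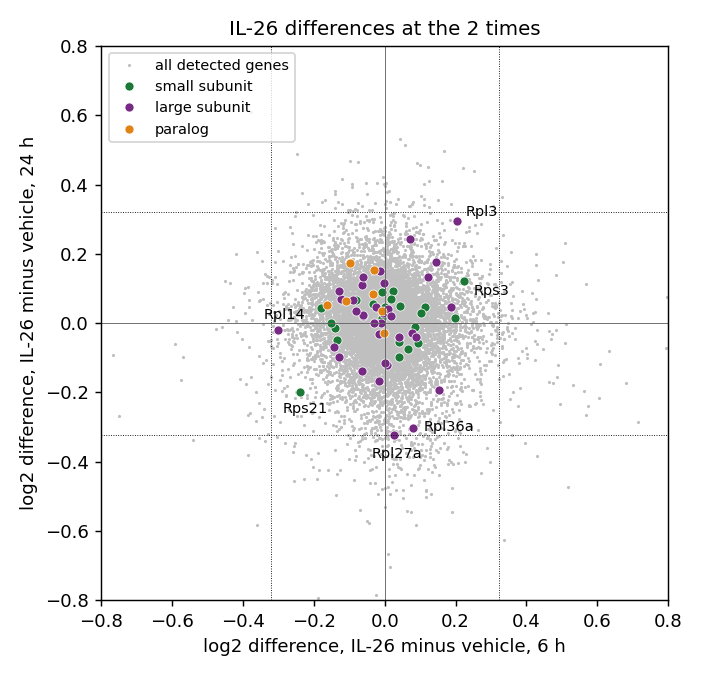
Log2 difference of IL-26 minus vehicle at 6 h (horizontal) and at 24 h (vertical) for the 66 members, coloured by subunit, over all detected genes in grey (a few genes lie outside the axes); dotted lines mark a log2 difference of 0.32. Members lie within the cloud, and only Rpl27a is past a dotted line, at -0.32 at 24 h.

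Brightness before normalisation ran against IL-26. Without any scaling, 61 of 68 member spots were lower with IL-26 at 24 h, with a median log2 ratio of -0.12, and 59 of 68 at 6 h, with -0.11. Over all gene spots that ratio was -0.11 at 24 h and -0.039 at 6 h. Quantile normalisation sets the brightest spots by their rank alone. Rps2, for instance, had the same normalised value of 15.46 on 3 arrays despite spots of 40900, 46481 and 48390. For the 16 members read from scan 1 alone on any array, differences below about the gap between neighbouring ranks can thus not be seen.

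The test for time called members in both directions. Of 66 members, 4 rose at 24 h against 6 h and 13 fell, averaged over both treatments, and 49 did not pass the test. Over all genes 14.5% were called higher and 14.4% lower at 24 h. Calls were more frequent among bright genes, and of the 60 members whose mean was above the median of the detected genes 3 rose (5%) and 13 fell (21.7%), where 21% of all genes above that median rose and 22.1% fell. Among the small subunit proteins 0 rose and 6 fell of 24, among the large subunit proteins 4 rose and 6 fell of 35, and among the paralogs 0 rose and 1 fell of 7. Median scaling gave 4 that rose and 21 that fell, against 21% and 13.3% of all genes, and with the local background subtracted 0 members and 0% of all genes were called for time in either direction. Since 1 culture was taken at each time and treatment, time and the array itself cannot be told apart.

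Rpl22, named for an RNA-binding protein of the large subunit, rose the most. Its only probe is annotated to a non-coding transcript, and which transcripts it reads was not tested. Local background was 54.5% to 85.9% of its spot. Its spot read 235.7 at 24 h with IL-26 and 230.1 with vehicle, and 146.0 at 6 h with IL-26 and 164.0 with vehicle. Both arrays at 24 h were above both at 6 h. The averaged rise was 1.51-fold (log2 0.59 ± 0.08 SE, limma adjusted p = 4.61e-08). Rpl22l1, its paralog, whose expression Rpl22 is known to restrain in mice, had 0.21 ± 0.11 with an adjusted p of 0.158. Its spot read 2683 and 2642 at 24 h with IL-26 and vehicle, and 2333 and 2737 at 6 h with IL-26 and vehicle, so the vehicle arrays did not show the direction before scaling.

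The 3 other members that rose were all of the large subunit. Rpl13a, known also for its part in translational silencing in interferon-treated human cells, read 1516 at 24 h with IL-26 and 1559 with vehicle, and 1200 at 6 h with IL-26 and 1407 with vehicle. Its rise was 1.24-fold (log2 0.31 ± 0.11 SE, limma adjusted p = 0.0321), a call that was lost with an offset of 200 (adjusted p = 0.0561), without trend (0.0557) and with undetected genes included (0.0562). Rpl10a rose 1.16-fold (0.22 ± 0.08 SE, adjusted p = 0.0344), but its spots overlapped, with 18301 and 18806 at 24 h with IL-26 and vehicle and 17335 and 18976 at 6 h with IL-26 and vehicle. Its call was lost with median scaling (adjusted p = 0.394), in the authors' values (0.303), without trend (0.0893) and with undetected genes included (0.091), and its direction turned with the local background subtracted (-0.88). Rpl37 rose 1.10-fold (0.14 ± 0.03 SE, adjusted p = 0.000536), with spots near the blank limit, which read 64.9 and 69.5 at 24 h with IL-26 and vehicle, and 58.9 and 58.8 at 6 h with IL-26 and vehicle. The size of this rise differed with the processing, since the log2 difference was 0.041 with an offset of 200 and 0.64 in the authors' values. Without trend the call was lost (adjusted p = 0.0888). The blank mean itself was 51.9 and 56.5 at 24 h with IL-26 and vehicle, and 50.2 and 49.6 at 6 h with IL-26 and vehicle.

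Among the next members with a positive difference, Rpl3 had 0.21 (adjusted p = 0.0764), Rps9 had 0.19 (adjusted p = 0.0883) and Rpl41 had 0.16 (adjusted p = 0.0961). None of these 3 passed the test.

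Rps21 and Rps19, of the small subunit, had the lowest adjusted p among the members that fell. Rps21 fell 1.44-fold (log2 -0.53 ± 0.08 SE, limma adjusted p = 3.76e-07), and both of its 24 h spots, given above, were below both at 6 h. Rps19, which matures 18S rRNA and is mutated in human Diamond-Blackfan anaemia, read 126.4 at 24 h with IL-26 and 136.3 with vehicle, and 168.2 at 6 h with IL-26 and 198.4 with vehicle. It fell 1.41-fold (-0.49 ± 0.08 SE, adjusted p = 5.87e-07). The raw spots of Rps19 did not overlap between the times either, and how many of all genes were apart in this way was not counted. Before scaling, 53 of 68 member spots were lower at 24 h in IL-26 and 57 of 68 in vehicle. Their median log2 ratios were -0.16 and -0.17, where those over all gene spots were 0.014 and 0.094. With the local background subtracted Rps21 had -0.34 (adjusted p = 0.82), and Rps19 turned to 0.49 (adjusted p = 0.767).

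Rpl17, a large subunit protein at the exit of the tunnel for the nascent chain, had the largest fall of its subunit. Its spot read 452.4 at 24 h with IL-26 and 524.1 with vehicle, and 678.5 at 6 h with IL-26 and 739.5 with vehicle. It fell 1.42-fold (-0.51 ± 0.11 SE, limma adjusted p = 0.000109). Rpl31, on the rim of the same exit, read 638.1 and 632.4 at 24 h with IL-26 and vehicle, and 858.0 and 932.8 at 6 h with IL-26 and vehicle, a fall of 1.36-fold (-0.45 ± 0.11 SE, adjusted p = 0.000896) that turned to 0.43 with the local background subtracted. Rpl26, also near the exit, fell by 0.33 ± 0.08 SE on the log2 scale (adjusted p = 0.00089), with spots of 15334 and 18827 at 24 h with IL-26 and vehicle, and of 23970 and 25500 at 6 h with IL-26 and vehicle. Rpl39, which lines the tunnel itself, did not pass, with -0.03 ± 0.10.

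Rpl38, known in mice for its role in translating Hox messenger RNAs, read 114.1 at 24 h with IL-26 and 132.6 with vehicle, and 147.4 at 6 h with IL-26 and 159.4 with vehicle. It fell 1.26-fold (-0.33 ± 0.07 SE, limma adjusted p = 0.000272). Rps27l, the p53-inducible paralog of Rps27, read 3703 and 3849 at 24 h with IL-26 and vehicle, and 4678 and 5571 at 6 h with IL-26 and vehicle, and fell 1.28-fold (-0.36 ± 0.10 SE, adjusted p = 0.00585). Rps27 itself, whose probe is annotated to a non-coding transcript, had 0.15 ± 0.08 with an adjusted p of 0.174.

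Rps13 fell 1.22-fold (-0.29 ± 0.08 SE, limma adjusted p = 0.00429), and Rpl14 fell by 0.32 ± 0.10 SE on the log2 scale (adjusted p = 0.00904). The call of Rpl14 was lost without trend (adjusted p = 0.0882), and its direction turned with the local background subtracted (0.77). Rps6, the substrate of the S6 kinases downstream of mTOR, read 14895 at 24 h with IL-26 and 17825 with vehicle, and 20904 at 6 h with IL-26 and 21526 with vehicle. Its fall of 1.16-fold had an adjusted p of 0.0402, close to the threshold. Rpl7, Rps24 and Rps26 fell by 0.24, 0.24 and 0.21 on the log2 scale, with adjusted p of 0.0211, 0.0398 and 0.0281. Without trend Rps6, Rpl7 and Rps26 had adjusted p of 0.0763, 0.0582 and 0.0514, and with undetected genes included Rps6, Rpl7, Rps24 and Rps26 had 0.0949, 0.0654, 0.0665 and 0.0793. Rps24 was lost with median scaling (0.0871) and in the authors' values (0.183) too.

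**Figure D4:**
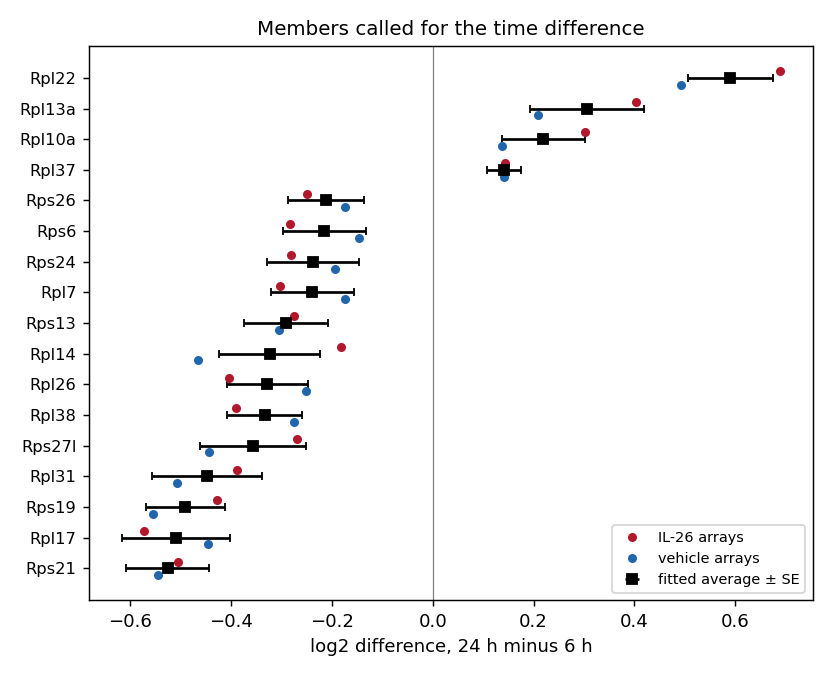
Log2 difference of 24 h minus 6 h (horizontal) of the 17 members called for time, ordered by size; black squares with bars give the fitted average ± SE, red points the IL-26 arrays and blue points the vehicle arrays. Each of the 17 has the same sign in both treatments, from Rpl22 at 0.59 to Rps21 at -0.53.

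Each treatment gave its own reading of time. In the IL-26 arrays a log2 difference of 0.32 or more was found upwards in 3 members and downwards in 7, where 8.04% and 7.9% of all genes were. In the vehicle arrays 2 were higher and 6 lower, where 7.67% and 7.1% of all genes were. Both medians of the members were near 0, at -0.0095 in IL-26 and -0.028 in vehicle, and with median scaling they were -0.11 and -0.098. With the local background subtracted the vehicle median was 0.061. The sign of the difference was the same in both treatments for 48 of 66 members, or 72.7%, and for 71.7% of all genes.

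A few members gave unlike values in the 2 treatments, and the difference between treatments was not tested. Rpl32 had -0.35 on the log2 scale in IL-26, with a spot of 32098 at 24 h and 45301 at 6 h, and had 0 in vehicle, where its rank was the same although the spots were 40423 and 46058. Rpl36a had 0.35 in vehicle, with a spot of 20557 at 24 h and 18435 at 6 h, and -0.03 in IL-26, with 15317 and 17795. Rpl27a had 0.30 in vehicle, short of the limit, and -0.05 in IL-26.

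**Figure D5:**
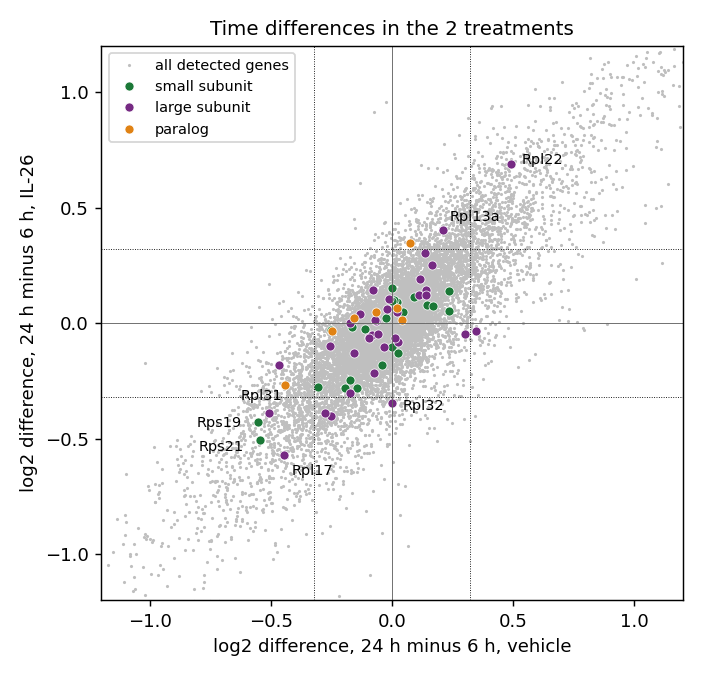
Log2 difference of 24 h minus 6 h in vehicle (horizontal) and in IL-26 (vertical) for the 66 members, coloured by subunit, over all detected genes in grey (the axes leave out genes beyond 1.2); dotted lines mark a log2 difference of 0.32. Rpl22 is past the lines upwards in both treatments, at 0.49 in vehicle and 0.69 in IL-26, and most members stay between the lines.

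Several members with known roles outside the ribosome did not pass either test. Rpl5 and Rpl11, which with 5S rRNA bind the p53 inhibitor Mdm2, had time differences of -0.03 ± 0.07 and -0.08 ± 0.09 and IL-26 differences of -5e-04 ± 0.07 and 0.01 ± 0.09. The spots of Rpl11 read 7435 at 24 h with IL-26 and 8477 with vehicle, and 9295 at 6 h with IL-26 and 10213 with vehicle. Rpsa, which also serves as a laminin receptor, read 573.8 and 575.3 at 24 h with IL-26 and vehicle, and 540.1 and 589.7 at 6 h with IL-26 and vehicle, and had 0.05 ± 0.11 for time. Rps10, mutated like Rps19 in some Diamond-Blackfan patients, read 25442 and 29816 at 24 h with IL-26 and vehicle, and 30442 and 35715 at 6 h with IL-26 and vehicle, and had -0.07 ± 0.07. A p above the threshold does not show that their levels were equal.

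The paralogs were a mixed group. Rpl10l, a male germ cell paralog of the X-linked Rpl10, read 77.2 at 24 h with IL-26 and 75.9 with vehicle, and 77.0 at 6 h with IL-26 and 81.5 with vehicle. Rpl39l, likewise known from male germ cells, lay between 79.1 and 84.3, and Rps4l between 66.4 and 73.3. These values lay just above the blank limit and can hardly show a fall. Rpl7l1 read 916.1 at 24 h with IL-26 and 944.1 with vehicle, and 982.2 at 6 h with IL-26 and 1190 with vehicle. The parent genes Rpl10, Rps4x and Rpl3 had time differences of -0.05 ± 0.07, 0.10 ± 0.07 and 0.21 ± 0.09, none called.

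Where a gene had 2 probes, these could be set side by side. The 2 spots of Rpl9 carry the same RefSeq accession in the annotation, yet 1 read between 223.8 and 266.0 and the other between 23582 and 29794. Their time differences were 0.11 and 0.14 in IL-26 and 0.25 and 0.03 in vehicle, and their IL-26 differences were -0.02 and -0.04 at 24 h but of opposite sign at 6 h, with 0.12 and -0.15. The 2 spots of Rps28 lay between 22214 and 26238, with IL-26 differences of 0.04 and 0.10 at 24 h and 0.03 and 0 at 6 h, and time differences of 0.08 and 0.06 in IL-26 and, of opposite sign, 0.07 and -0.04 in vehicle. Brightness is therefore a property of the probe too, and a level is not compared between genes here. Of the 66 members, 35 had all their spots at 10000 or more and 20 had all of them under 1000. In the bright group 1 of 35 rose and 5 fell with time, and in the dim group 2 of 20 rose and 7 fell. Over all genes 14.5% rose and 14.4% fell, and the difference between the groups was not tested.

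The annotated start of each gene shows how far the TOP rule holds among the members. RefSeq promoter windows (GRCm38.p6, 250 bases before to 50 after the start) were at hand for 52 of the 66 members, in 62 windows. A C followed by at least 4 pyrimidines on the sense strand, beginning within 10 bases of the start, was present in 35 windows, or 56.5%, and in 29.7% of all 32851 windows. The windows of members called for time held it at 54.5% and those of the other members at 57.5%. TATAAA on either strand, in the 50 bases before the start, was in 1 member window, or 1.61%, that of Rpl22l1, and in 3.5% of all. The stretches below run from 15 bases before to 15 after the annotated start, with the C and its pyrimidines in capitals, and show members that rose or fell with time and Rps10, which did not pass.
Rps21, chr2:180257364-180257393, plus strand: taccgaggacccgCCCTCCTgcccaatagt
Rpl38, chr11:114668565-114668594, plus strand: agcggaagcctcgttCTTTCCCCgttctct
Rpl31, chr1:39367836-39367865, plus strand: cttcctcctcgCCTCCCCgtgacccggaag
Rps6, chr4:86857353-86857382, minus strand: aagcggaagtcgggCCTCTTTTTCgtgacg
Rpl26, chr11:68901551-68901580, plus strand: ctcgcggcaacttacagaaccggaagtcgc
Rpl13a, chr7:45128731-45128760, minus strand: gaaaccctgcgacaagaCCTCCTCCTTTCC
Rpl22, chr4:152324421-152324450, plus strand: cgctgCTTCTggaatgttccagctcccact
Rps10, chr17:27635230-27635259, minus strand: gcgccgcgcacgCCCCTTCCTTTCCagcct
RefSeq gives Rps21 and Rpl22 a second start each, and neither of those windows holds a tract. Rpl38 has its tract exactly from the annotated first base, and Rps6 from the base before it. Rpl26 has none in this window although it fell, and Rps10 has a tract of 13 bases although it was not called. The match of letters is a description and says nothing of the transcript ends used in E0771 cells.

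Neighbouring parts of the translation machinery gave a frame for these values. Of 75 mitochondrial ribosomal proteins, 3 rose and 25 fell with time, with a median of -0.16, where that of the cytosolic ones was -0.029. Over all genes 14.5% were called higher and 14.4% lower with time. Of 34 proteasome subunits 11 rose and 5 fell, with a median of -0.027. IL-26 called 0 genes of either group, where 0.169% of all genes were called higher and 0.321% lower, so this is not a result about them. The difference between the groups was not tested.

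Of the elongation factors and TOP partners 13 of 16 listed genes had values, and with time 3 rose and 1 fell. Eif4b rose by 0.65 ± 0.11, Hnrnpa1 by 0.55 ± 0.11 and Fau, the precursor of Rps30, by 0.32 ± 0.08, while Btf3 fell by 0.47 ± 0.10. Of 23 initiation factors 4 rose and 4 fell, with Eif2s2 (-0.76 ± 0.10) and the helicase Eif4a1 (-0.64 ± 0.09) among those that fell. Of 50 genes of rRNA synthesis and ribosome assembly 5 rose and 13 fell. Over all genes 14.5% were called higher and 14.4% lower with time. Among all genes above the median brightness 21% rose and 22.1% fell. The 3 lists were not tested against these shares. Of the snoRNP proteins, Nhp2 (-0.87 ± 0.11), Nop58 (-0.65 ± 0.11), Nop56 (-0.56 ± 0.11) and Dkc1 (-0.56 ± 0.11) fell. Fbl (-0.04 ± 0.10), Gar1 (-0.07 ± 0.11) and Nop10 (0.24 ± 0.11) were not called. Polr1c (0.59 ± 0.11), a subunit of RNA polymerases I and III, rose. Polr1a fell (-0.23 ± 0.09), and Polr1b, Polr1d and Polr1e were not called. IL-26 called none of the genes on these 3 lists, where 0.169% of all genes were called higher and 0.321% lower, so this is not a result about the lists.

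Markers of other cell types were read for each list in full, each against the blank spots and not against each other. Of the epithelial markers Krt8 read between 1436 and 1838, and Epcam, Cdh1, Krt18 and Krt19 read between 59.4 and 74.3, close to the blank limits of 51.8 to 58.1. Of the mesenchymal markers Vim read between 15519 and 19167, Zeb1 between 164.4 and 267.9 and Fn1 between 51.7 and 59.0. Zeb1 rose with time (0.55 ± 0.09 SE, limma adjusted p = 4.18e-07). Ptprc, Cd3e and Adgre1 of leukocytes and Pecam1 and Cdh5 of endothelium read between 51.6 and 60.6. Kdr, also endothelial, read between 75.5 and 93.1.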

How the data were processed

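Total RNA of E0771 cells was amplified, coupled to Cy5 and read on 3D-Gene mouse oligo arrays (TORAY) with 1 array for each of the 4 samples. The deposited array files hold the spot median intensity and the local background intensity of the red channel, with nothing subtracted. A second table holds intensity values that the authors scaled to a median of 25 on each array, and which were linear in the spot values. Aligner and build do not apply, and the scanner software is not given in the sources used here.

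Symbols come from the platform annotation, updated by gene ID or accession. Spots were corrected with normexp from 384 blank spots (offset 50), put on the log2 scale, quantile normalised over gene spots and averaged per gene with limma 3.58.1 in R 4.3.3. The offset draws differences of dim spots towards 0. A spot above the mean plus 2 SD of the blanks was called detected. IL-26 and time were fitted together in an additive limma model with trend over 18372 genes, with Benjamini-Hochberg adjustment. It was run on simulated data that followed the same additive model by design, so that run does not bear on these arrays. With 1 residual degree of freedom beside a prior worth 63.8, the p-values rest mostly on the spread of other genes. They do not measure a spread between replicates, since each group had 1 array, and the spread used may be technical.

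Named are members at 40000 or more, the 6 highest and lowest in each comparison, the 8 lowest adjusted p for time in each direction, members not detected throughout, and a list of subunits of known role; other members named with them were chosen after their values were seen. The members and lists were chosen with earlier results of these data known. Promoter windows are from RefSeq. Figures were drawn with matplotlib 3.10.9.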

Additional observations from a re-analysis of the deposited data

How the results depend on the processing

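Each alternative but 1 gave 0 calls for IL-26 among the members. Few genes were called in any case, with 192 of 18372 under median scaling, 0 without trend and 4 of 19316 with undetected genes included. Read against such counts, 0 members is not a result about them. The exception was subtraction of the local background. That subtraction called 10 members higher with IL-26 (3.77% of all genes higher), and 0 higher and 0 lower with time (0% of all genes). It put 34 and 49 members past a log2 difference of 0.32 for IL-26 at 24 h and 6 h, where 29.7% and 41.2% of all genes were. For time in IL-26 it put 25 members past it, but the share of all genes was not counted there, so this is not read as a result. For time in vehicle it put 36 members past it, where 28.8% of all genes were. Its medians were 0.37 for IL-26 at 6 h, and -0.12 and 0.061 for time in IL-26 and vehicle. It also turned Rpl10a (-0.88), Rpl14 (0.77), Rpl31 (0.43) and Rps19 (0.49) for time and Rpl3 (-0.18) for IL-26, and took the call from the other 13 members. Over all genes its medians for IL-26 were -0.060 at 24 h and -0.11 at 6 h. The local background was higher on both vehicle arrays, and whether this gave the calls was not tested.

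Median scaling gave 21 falls with time, where 13.3% of all genes fell. It put 2 and 1 members past a log2 difference of 0.32 for IL-26 at 24 h and 6 h, where 1.87% and 1.13% of all genes were. Its medians were -0.074 for IL-26 at 24 h and -0.11 and -0.098 for time in IL-26 and vehicle. The authors' values put 2 and 2 members past a log2 difference of 0.32 for IL-26 at 24 h and 6 h, where 18.6% and 14.3% of all genes were. Their member median for time in IL-26 was -0.066. An offset of 200 gave 0 members for IL-26 at 24 h and 5 for time in vehicle, where 0.386% and 7.35% of all genes passed the limit. A limit of 1.5-fold left 0 for IL-26 at 24 h, 1 for time in IL-26 and 0 in vehicle. Of all 18372 detected genes, it left 2 higher and 7 lower for IL-26 at 24 h. For time it left 527 higher and 411 lower in IL-26, and 477 and 367 in vehicle. Without trend 1 member rose with time, and with undetected genes included 2 did, where 9.58% and 12% of all genes rose. The cause of these shifts was not tested. Of the 17 time calls, 15 were kept with median scaling, 15 in the authors' values, 10 without trend and 11 with undetected genes. Leaving out the 6 members at 40000 or more, or, chosen after seeing the data, the 16 read from scan 1 alone, could change no call of those left. The fit over all genes was the same, and only the members counted differed, so this says nothing about saturation. Leaving out an array could not be fitted with any residual degree of freedom. Depth is unknown for arrays; their number limits the precision.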

Other observations

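The array also carries 31 spots named for processed pseudogenes of ribosomal proteins, of which 13 read 10000 or more on all 4 arrays and 3 under 200. Several followed the gene of the same name. Rpl31-ps21 had time differences of -0.67 in IL-26 and -0.54 in vehicle, where Rpl31 had -0.39 and -0.51, and Rps24-ps2 had -0.41 and -0.29, where Rps24 had -0.28 and -0.19. Others did not, as Rpl13a-ps1 had -0.43 in IL-26 and -0.05 in vehicle, where Rpl13a had 0.40 and 0.21. The probe sequences were not used here, so which transcripts these spots read was not tested, and the values of members with such near copies are uncertain to the same extent.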
